A study of Drosophila melanogaster with 6 samples.

Results

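The genes described here are those of chromosome 4 of Drosophila melanogaster, taken as every transcript that the deposited sheets place on that chromosome. There were 43 such transcripts, each of a different gene, among 5528 transcripts of 5524 genes listed in all. The RefSeq gene table matched all 43 of them, 42 as protein-coding genes, out of 80 protein-coding genes that it places on the chromosome. Current symbols are used, and 22 of the 43 differ from the name in the sheets.

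Chromosome 4 is the smallest Drosophila chromosome, known as the dot chromosome. Nearly all of it is packaged as heterochromatin rich in HP1a and in methylated histone H3 lysine 9, yet many of its genes are actively transcribed. The protein Pof binds these genes and is known to help keep them active.

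The study asked how transcription in S2 cells changed when BEAF or Pbro was depleted. S2 is a Drosophila cell line of embryonic origin with features of blood cells. BEAF is a boundary protein that binds close to the start sites of many housekeeping genes, and Pbro (polybromo) is a subunit of PBAP, a chromatin remodelling complex of the SWI/SNF class. Engaged RNA polymerase II (Pol II) was mapped by PRO-seq, which labels and sequences nascent RNA in isolated nuclei. The groups were BEAF RNAi, Pbro RNAi and the control LacZ RNAi, with 2 biological replicates each and 6 libraries in all. LacZ is a bacterial gene that these cells lack. In each group 150 µg of double-stranded RNA was given on 2 occasions 2.5 days apart, and the cells were harvested after a further 2.5 days.

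Each gene was counted in a promoter-proximal window, the stretch of 50 bp with most reads around the annotated start, and in a gene body region. The sheets hold the authors' log2 fold change of knockdown over LacZ RNAi, in which a value of 1 is a doubling, and an adjusted p. Genes with an adjusted p under 0.05 stand in a down or an up sheet and are called here. Genes with an adjusted p over 0.9 stand in a sheet of unchanged genes, and those in between are not analysed here. All fold changes, adjusted p-values and calls below are therefore from the authors' deposited table. Levels in single libraries and standard errors were not used, so the only measure of replicate error is the adjusted p, and no new test was run. The LacZ libraries serve in every comparison. In bulk samples like these, fewer cells of a type and less RNA per cell cannot be told apart.

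In these sheets the targeted genes gave no check of the labels. In Pbro RNAi cells polybromo itself had log2 fold changes of −0.11 at the promoter and 0.029 in the gene body, both unchanged, and BEAF-32 was in no sheet used here. RNAi acts on mature mRNA, which PRO-seq does not measure. Of 10 genes marking blood cells, 8 were listed in at least 1 comparison, whereas NimC1 and crq were not.

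Among the listed chromosome 4 genes 3 were called, each in a single comparison, and the rest stood in unchanged sheets wherever listed. PlexB rose at the promoter after BEAF RNAi, myo fell at the promoter after Pbro RNAi, and dati fell in the gene body after Pbro RNAi. The plot of every listed gene in chromosome order shows these 3 standing apart from a narrow band around 0.

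**Figure D1:**
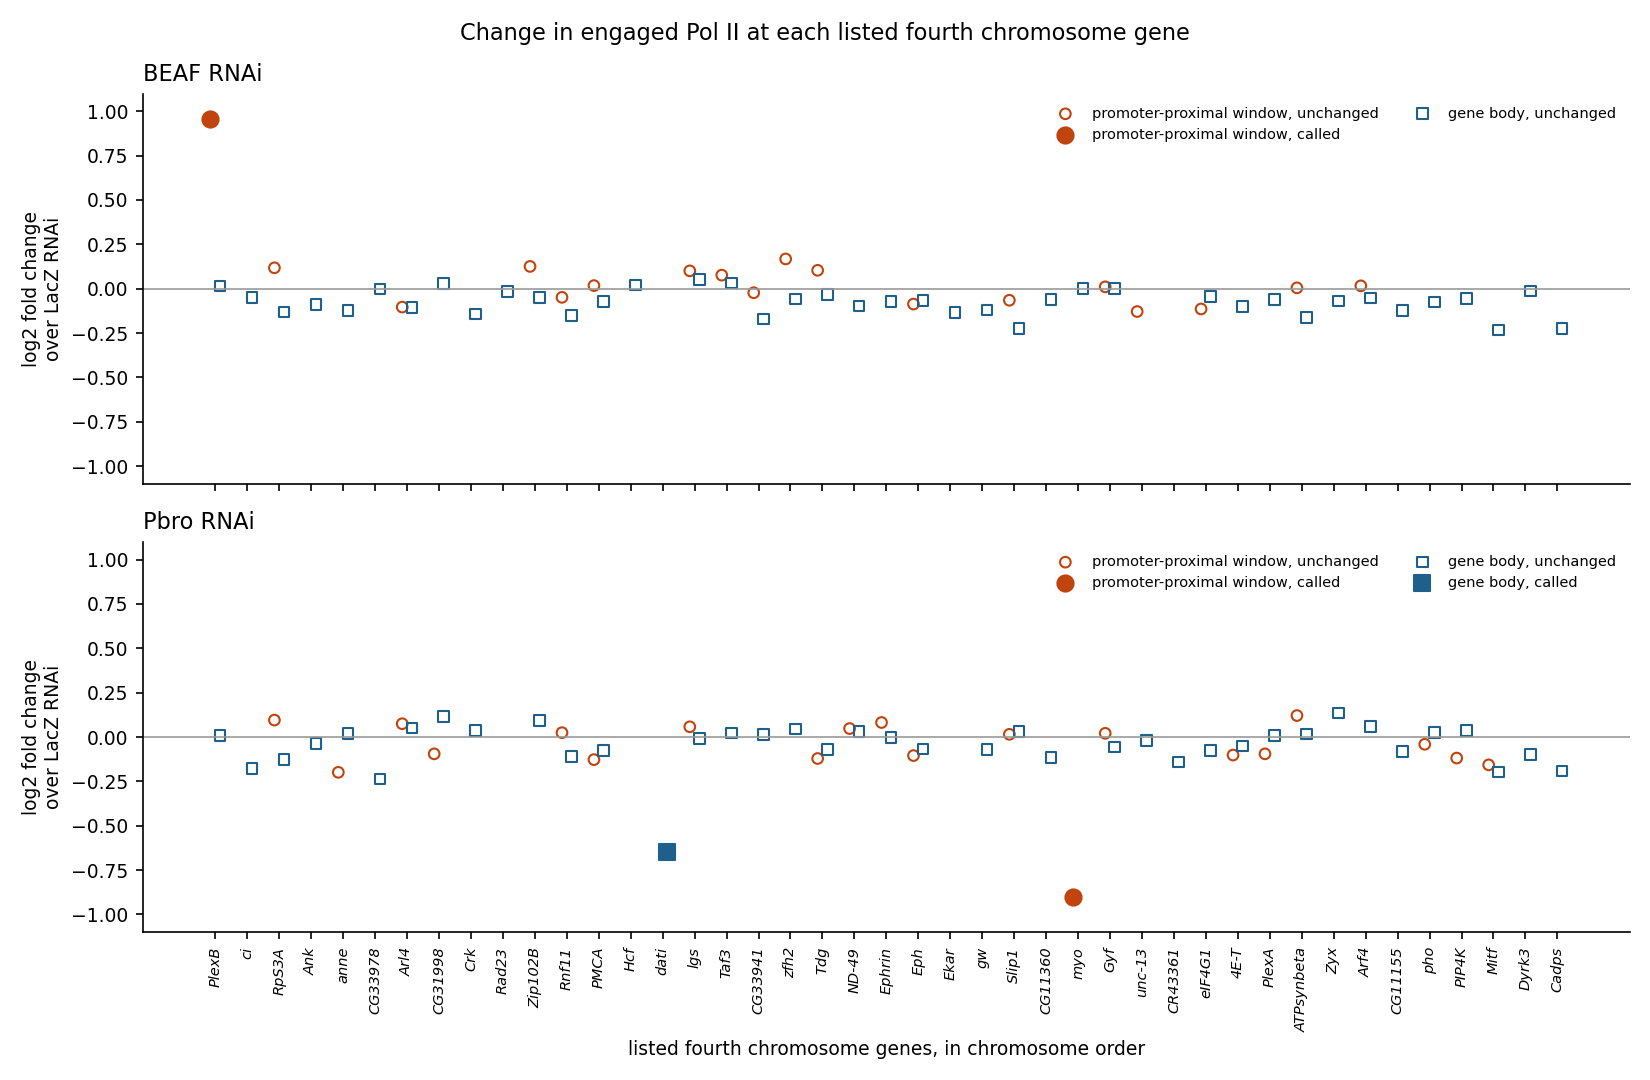
Each of the 43 listed chromosome 4 genes is placed in chromosome order on the horizontal axis, with its log2 fold change over LacZ RNAi on the vertical axis for BEAF RNAi (top) and Pbro RNAi (bottom). Circles are promoter-proximal windows and squares gene bodies. Filled symbols are calls at an adjusted p under 0.05, which are PlexB (0.96), dati (−0.65) and myo (−0.90), while open symbols lie between −0.24 and 0.17.

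At the promoter after BEAF RNAi, 18 of the 43 genes were listed, and 1 was called up and 0 down. Among all 2137 transcripts listed in that comparison, 2.67% were called up and 2.2% down. In the gene body after BEAF RNAi, 40 genes were listed and 0 were called, where 1.33% of 4810 listed transcripts were called down and 0.416% up. After Pbro RNAi, 20 genes were listed at the promoter, with 1 called down and 0 up, where 13.2% of 2510 transcripts were called down and 1.87% up. In the gene body after Pbro RNAi, 39 genes were listed, again with 1 called down and 0 up, where 5.45% of 4127 transcripts were called down and 1.09% up. With so few genes listed, a single gene was 2.6% to 5.6% of those in a comparison, and nothing can be read from counts of 0 and 1 about the chromosome.

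PlexB encodes a plexin, a receptor for semaphorins in axon guidance. It lies on the minus strand of chromosome 4 (dm3, chr4:53434-64400), the first listed gene in chromosome order, and spans 10967 bases. Its promoter log2 fold change was 0.96 in BEAF RNAi cells over LacZ RNAi cells, a 1.94-fold rise (adjusted p = 0.000134, DESeq2). That rise ranked 14 by size among the 57 transcripts called up there, whose median was 0.78. The gene body did not follow: its log2 fold change was 0.015 after BEAF RNAi and 0.0097 after Pbro RNAi, both unchanged. The promoter of PlexB was not listed after Pbro RNAi. The nearest listed gene, ci, which encodes the transcription factor of Hedgehog signalling, ends 3933 bases away. Its gene body values were −0.048 after BEAF RNAi and −0.18 after Pbro RNAi, both unchanged.

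The gene myo (myoglianin) encodes a secreted ligand of the TGF-beta family. It lies on the minus strand (dm3, chr4:711893-716674) and spans 4782 bases. At its promoter the log2 fold change was −0.90 in Pbro RNAi cells over LacZ RNAi cells, so that engaged Pol II fell by 46.4% (adjusted p = 0.000205, DESeq2). By size this ranked 261 among the 332 transcripts called down at the promoter, whose median was −1.26. After BEAF RNAi the gene body of myo was unchanged, at 0.0022. Its BEAF RNAi promoter and its Pbro RNAi gene body were not listed. The listed genes on either side, CG11360 at 5096 bases and Gyf at 159351 bases, were unchanged wherever listed. Chromosome 4 carries a further pair of TGF-beta ligand genes, mav and Actbeta, and neither was listed.

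The gene dati, named CG2052 in the sheets, encodes a zinc finger transcription factor. It spans 17777 bases on the minus strand (dm3, chr4:396260-414036). Its gene body log2 fold change was −0.65 in Pbro RNAi cells over LacZ RNAi cells, so that engaged Pol II fell by 36.1%, with the smallest adjusted p among the 43 genes (1.9e-09, DESeq2). By size it ranked 163 among the 225 transcripts called down in gene bodies, whose median was −0.82. No other comparison listed dati. Hcf, which encodes a chromatin-bound coregulator and ends 649 bases from dati, was listed in the BEAF RNAi gene body alone, at 0.021. On the other side, at 43540 bases, lgs encodes the Wnt pathway coactivator Legless and was unchanged in all 4 comparisons, between −0.0095 and 0.10.

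None of the 3 calls reached a 2-fold change. The other listed values all came from the unchanged sheets, whose largest value by size over all chromosomes was −0.42. Their absolute log2 fold changes after BEAF RNAi were at most 0.17 (promoter) and 0.23 (gene body). After Pbro RNAi they were at most 0.20 (promoter) and 0.24 (gene body).

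In gene bodies after BEAF RNAi the chromosome 4 genes lay mostly on the negative side, although none of them was called. Of 40 listed genes, 33 had a log2 fold change below 0. Their median was −0.069 (quartiles −0.12 and −0.029), which is a change of −4.65% in BEAF RNAi cells over LacZ RNAi cells. For the 4770 listed transcripts of all other chromosomes, 47.5% lay below 0 and the median was 0.0074. On the 5 other main arms taken singly, medians ran from −0.00065 to 0.011 and the share below 0 from 45.3% to 50.2%. Of the 40 genes, 20 lay below the lower quartile of the other chromosomes (−0.070), and 0 lay above their upper quartile (0.079). These are descriptions of the deposited values, with no test. The adjusted p does not order the genes here, since 39 of the 40 share the value of 0.999647, as do 4453 of all 4810 transcripts.

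In the other comparisons the median differed less from that of the rest of the genome. In gene bodies after Pbro RNAi the median of 39 listed chromosome 4 genes was −0.019, with 22 below 0, against medians of 0.0093 to 0.015 on the other arms. Of the 39 genes 16 (41.0%) lay below the lower quartile of the other chromosomes and 3 (7.69%) above their upper quartile. At the promoter after Pbro RNAi the median of 20 genes was −0.068, with 11 below 0, where the other arms ran from −0.032 to 0.0021. That median turned to 0.023 among the 10 genes listed in all 4 comparisons, and the share below 0 (55.0%) was within the range of the other arms (48.6% to 56.9%). Of the 20 genes 15.0% lay below the lower quartile of the other chromosomes, so no displacement is read from this comparison. At the promoter after BEAF RNAi the sign was the opposite, with a median of 0.013 over 18 genes and 7 below 0. The other arms ran from −0.0077 to 0.0074. Of the 18 genes 7 (38.9%) lay above the upper quartile of the other chromosomes and 4 (22.2%) below their lower quartile. In the plot of medians by chromosome, the BEAF RNAi gene body panel has the widest gap between chromosome 4 and the 5 arms. There the quartiles of chromosome 4 (−0.12 and −0.029) also lay below those of the other chromosomes (−0.070 and 0.079), as the cumulative plot shows. The lower tail did not follow, with a lowest value of −0.23 on chromosome 4 and −2.61 elsewhere.

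**Figure D2:**
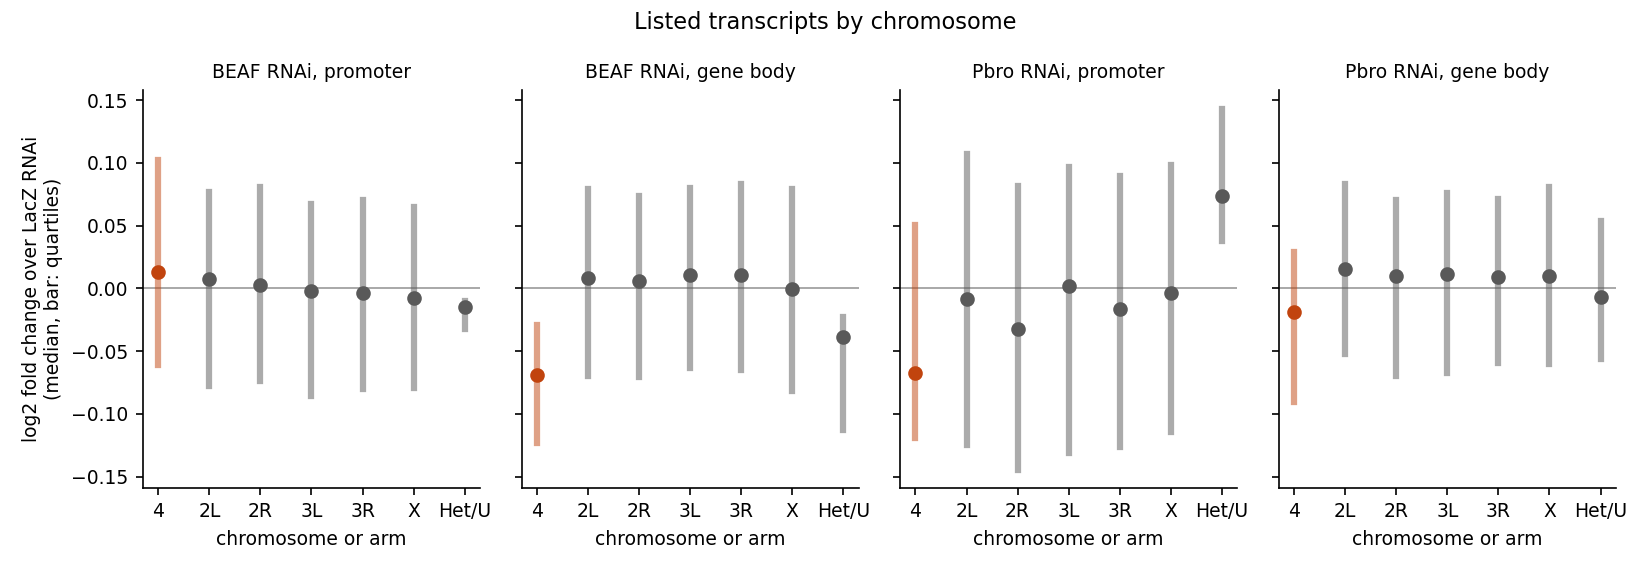
Points are median log2 fold changes over LacZ RNAi of listed transcripts, and bars run between the quartiles, by chromosome or arm, in 4 panels for knockdown and region. In the gene body panel for BEAF RNAi chromosome 4 (n = 40) has a median of −0.069, whereas the 5 main arms lie between −0.00065 and 0.011 and the heterochromatic and unplaced scaffolds (Het/U, n = 20) at −0.039.

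**Figure D3:**
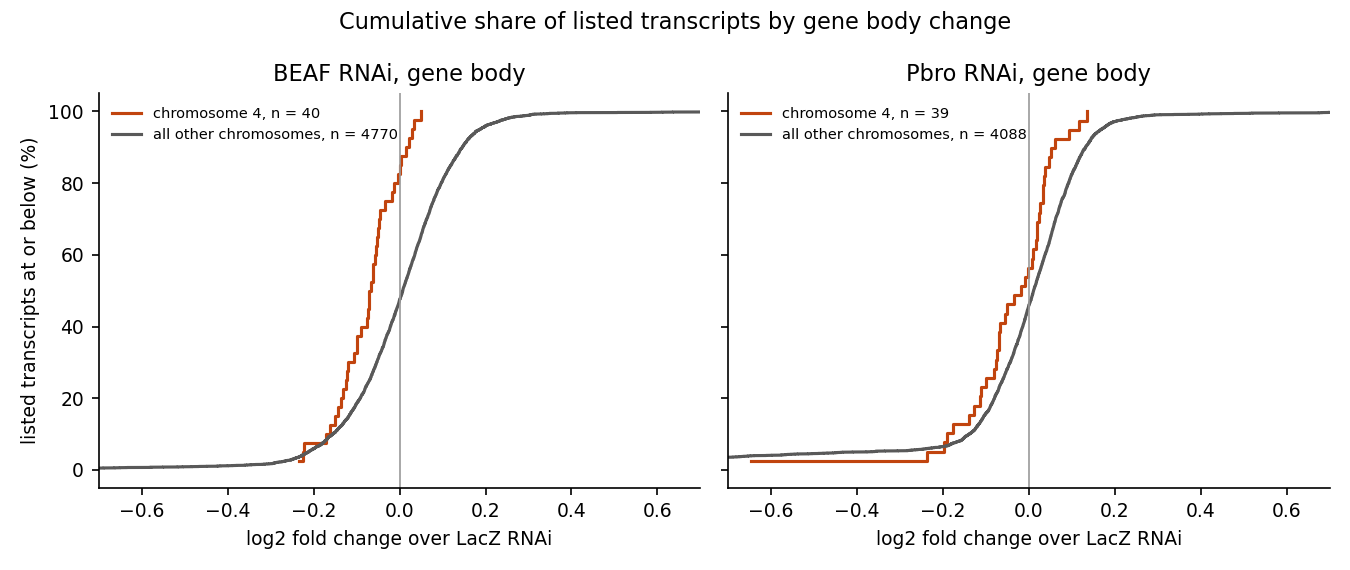
The cumulative share of listed transcripts (vertical axis, percent) is drawn against the gene body log2 fold change (horizontal axis), for chromosome 4 and for all other chromosomes, in BEAF RNAi and Pbro RNAi cells. At a log2 fold change of 0 after BEAF RNAi the chromosome 4 line has reached 82.5% and that of the other chromosomes 47.5%. Values of other chromosomes beyond the range drawn are out of view. After Pbro RNAi they include most of the 225 transcripts called down, whose median was −0.82.

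The dm3 build also keeps separate scaffolds of heterochromatin around the centromeres and scaffolds with no place, on which 22 transcripts were listed. In gene bodies after BEAF RNAi 17 of 20 of these lay below 0, with a median of −0.039. In gene bodies after Pbro RNAi 10 of 20 lay below 0, with a median of −0.0066. Of these 20, 1 was called down after BEAF RNAi, at −2.61. At promoters the scaffolds differed from chromosome 4. After BEAF RNAi 6 of 7 listed scaffold transcripts lay below 0, with a median of −0.015. After Pbro RNAi 2 of 9 did, with a median of 0.074.

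By median, genes on chromosome 4 were longer than those of each main arm, and length was therefore set beside the values. The 22 transcripts on the heterochromatic and unplaced scaffolds were longer still, with a median of 11348 bases. The median length was 6446 bases for the 43 genes (quartiles 3122 and 11364) and 2505 bases for the other 5485 transcripts. For transcripts of other chromosomes with a length between those quartiles, the median in BEAF RNAi gene bodies was 0.013 and 43.7% of 1428 lay below 0. For those longer than 6446 bases it was −0.0042, with 51.5% of 749 below 0. Within chromosome 4 the shorter genes lay further down: 20 of 21 listed genes of at most 6446 bases were below 0 with a median of −0.11, against 13 of 19 with a median of −0.048 for the longer ones. In 12 bins of length on the other chromosomes, medians ran from −0.0099 to 0.017, as drawn in the plot against gene length.

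**Figure D4:**
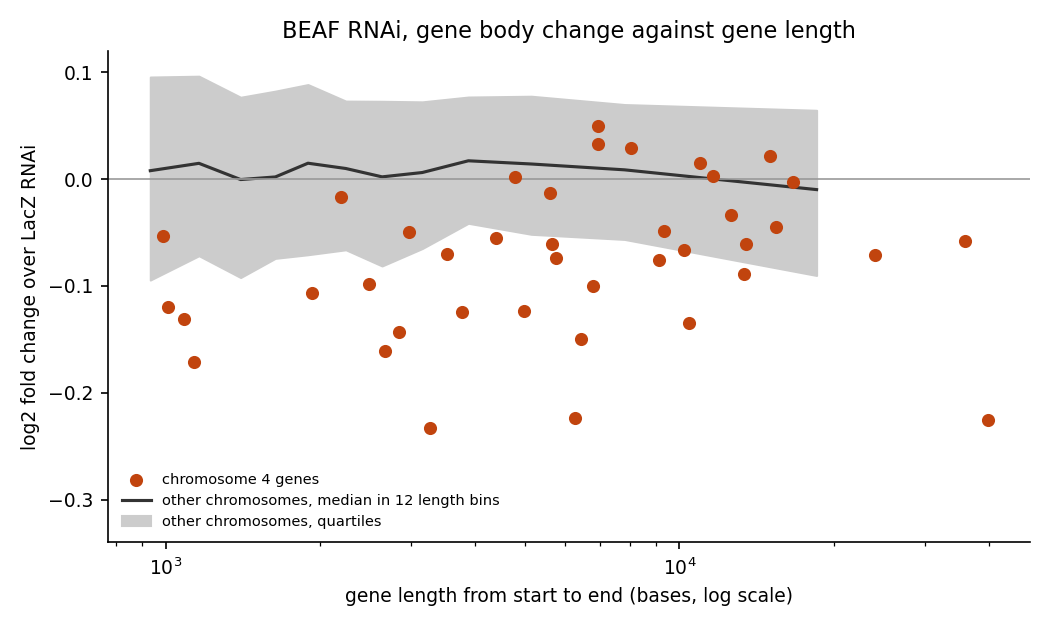
The gene body log2 fold change after BEAF RNAi (vertical axis) is plotted against gene length in bases (horizontal axis, log scale) for the 40 listed chromosome 4 genes (points). The line and band are the median and quartiles of the other chromosomes in 12 bins of about 397 transcripts. Points lie below the line across most of the range of length, and those above it are among the genes longer than 6446 bases.

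Length also went with the Pbro RNAi calls elsewhere. On the other chromosomes, 117 of 438 listed transcripts longer than 6446 bases (26.7%) were called down at the promoter after Pbro RNAi, and 100 of 631 (15.8%) in the gene body. Over all lengths on those chromosomes the shares were 13.3% and 5.48%. On chromosome 4 the counts above that length were 0 of 9 at the promoter and 1 of 19 (5.26%, dati) in the gene body. For its genes of at most 6446 bases they were 1 of 11 (9.09%, myo) and 0 of 20. With so few genes nothing is read from these counts about the chromosome, and no difference was tested.

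For gene bodies after Pbro RNAi, 90.7% of the 43 chromosome 4 genes were placed in a sheet, against 74.5% of the other transcripts. The share was 72.4% to 76.9% on the 5 arms and 90.9% (20 of 22) on the heterochromatic and unplaced scaffolds. In gene bodies after BEAF RNAi the share was 93.0% against 87.0%, with 90.9% on those scaffolds. At promoters it was 41.9% against 38.6% after BEAF RNAi and 46.5% against 45.4% after Pbro RNAi. For both knockdowns nearly all of these places were in the unchanged sheets. A total of 10 genes (23.3%) were listed in all 4 comparisons, against 15.6% of the other transcripts, and 5 genes were listed once.

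Those 10 genes were RpS3A, Arl4, Rnf11, PMCA, lgs, Tdg, Eph, Slip1, Gyf and ATPsynbeta, all unchanged in all 4 comparisons. RpS3A, a protein of the small ribosomal subunit, had promoter values of 0.12 after BEAF RNAi and 0.096 after Pbro RNAi, and gene body values of −0.13 after each. ATPsynbeta, the catalytic subunit of mitochondrial ATP synthase, had promoter values of 0.0045 and 0.12 and gene body values of −0.16 and 0.018 in the same order of knockdowns. PMCA, the calcium pump of the plasma membrane, lay between −0.13 and 0.017 over the 4 comparisons. Rnf11, a RING finger gene, had gene body values of −0.15 after BEAF RNAi and −0.11 after Pbro RNAi, and promoter values of −0.049 after BEAF RNAi and 0.025 after Pbro RNAi. Eph, the receptor of Ephrin, lay between −0.10 and −0.067 in all 4. Gyf, a regulator of translation, lay between −0.057 and 0.021. RpS3A and ATPsynbeta had a promoter and a gene body of opposite sign after BEAF RNAi, while Eph and Gyf had the same sign in both regions.

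After BEAF RNAi the promoter value was above the gene body value in 15 of the 17 chromosome 4 genes that had both. The median of promoter minus gene body was 0.10 on chromosome 4 (quartiles 0.043 and 0.17), and −0.026 for 1800 transcripts of the other chromosomes. PlexB had the largest difference at 0.94, followed by RpS3A at 0.25 and zfh2 at 0.23. After Pbro RNAi the promoter was higher in 9 of 19 genes, and the median difference was −0.017 on chromosome 4 and −0.0065 for 1762 other transcripts. In the Pbro RNAi set the extremes were RpS3A at 0.22 and anne at −0.22. Both regions of a gene come from the same libraries. Only genes listed in both regions enter, and the gene body values are those already described. The difference after BEAF RNAi is therefore not a result separate from them.

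The genes were next read by function, from lists of chromosome 4 genes that were chosen with earlier results of these data known. Of 59 genes in these lists, 35 were listed in at least 1 comparison and 24 were not. A gene missing from a sheet may have been outside the nonoverlapping genes that were counted. It may also have had few reads or an adjusted p between the limits, and these cannot be told apart here.

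Among signalling and axon guidance genes, 9 of 12 were listed, and PlexB was the 1 that passed the test, up at the BEAF RNAi promoter. PlexA, the second plexin gene of the chromosome, had gene body values of −0.061 after BEAF RNAi and 0.0069 after Pbro RNAi, and a Pbro RNAi promoter value of −0.095, all unchanged. Ephrin, the ligand of Eph, had gene body values of −0.074 after BEAF RNAi and −0.0012 after Pbro RNAi, and 0.082 at the promoter after Pbro RNAi. Crk encodes an adaptor protein of receptor signalling and had the lowest gene body value of the list after BEAF RNAi, −0.14. In that comparison 7 of the 9 lay below 0, with a median of −0.055.

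Of 11 transcription factor genes 4 were listed, and dati was the 1 called, down in the Pbro RNAi gene body. Mitf, a basic helix-loop-helix factor of lysosomal and autophagy genes, had the lowest gene body value of the whole chromosome after BEAF RNAi, −0.23. After Pbro RNAi its promoter stood at −0.16 and its gene body at −0.20, and all of these were unchanged. The zinc finger homeodomain gene zfh2 had the highest unchanged promoter value after BEAF RNAi, 0.17, with a gene body value of −0.058. The Polycomb group gene pho, whose protein binds DNA, had gene body values of −0.076 after BEAF RNAi and 0.026 after Pbro RNAi. The developmental regulators toy, ey, sv and Sox102F were not listed.

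Genes of chromatin, Pol II and RNA had 6 of 8 listed and 0 called in any comparison. Taf3, a subunit of the general factor TFIID, and Hcf were above 0 in gene bodies after BEAF RNAi, at 0.033 and 0.021. In the same comparison gw, which encodes the GW182 protein of microRNA silencing, had −0.12, and Tdg, a thymine DNA glycosylase, had −0.034. The list had 3 of 6 genes below 0 there and a median of −0.015, so it lay nearer 0 than the chromosome as a whole. At the BEAF RNAi promoter its 3 listed genes were all above 0, between 0.010 and 0.10.

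All 5 genes of translation, protein turnover and mitochondria were listed, and 0 were called. Each had a gene body value below 0 after BEAF RNAi, with a median of −0.099 and a range of −0.16 to −0.017. ND-49, a subunit of mitochondrial complex I, had −0.099, eIF4G1, the scaffold of the cap-binding complex, had −0.045, and Rad23, a shuttle for ubiquitinated proteins, had −0.017. At the Pbro RNAi promoter the 3 listed genes of this group, RpS3A, ND-49 and ATPsynbeta, were above 0, from 0.048 to 0.12. No value of this group was larger than 0.16 in size.

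Neuronal and synaptic genes had 4 of 8 listed and 0 called. Cadps, which primes dense-core vesicles for release, had gene body values of −0.23 after BEAF RNAi and −0.19 after Pbro RNAi, both unchanged. The glutamate receptor gene Ekar had −0.14 and CG11155 had −0.12 in the gene body after BEAF RNAi. For unc-13, a synaptic vesicle priming factor, the values were −0.13 at the BEAF RNAi promoter and −0.019 in the Pbro RNAi gene body. All values of this list lay below 0, none past the test.

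Trafficking and cytoskeleton genes had 5 of 8 listed and 0 called. All 5 were below 0 in the gene body after BEAF RNAi, with a median of −0.089, and 1 of 5 was below 0 after Pbro RNAi, with a median of 0.051. Zyx, the LIM-domain protein zyxin of focal adhesions, had −0.070 after BEAF RNAi and 0.14 after Pbro RNAi, the highest gene body value of the chromosome after Pbro RNAi. Arl4 and Arf4 encode small GTPases and had −0.11 and −0.053 after BEAF RNAi, and 0.051 and 0.060 after Pbro RNAi. Ank, an ankyrin that links membrane proteins to spectrin, had −0.089 and −0.035. The fifth gene, anne, had the lowest unchanged promoter value after Pbro RNAi, −0.20.

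Of 4 genes of kinases and metabolism, 1 was listed, the zinc transporter gene Zip102B. Its promoter value after BEAF RNAi was 0.13 and its gene body values were −0.050 after BEAF RNAi and 0.094 after Pbro RNAi. A further 8 listed genes were in no list, with 6 of 7 below 0 in BEAF RNAi gene bodies and a median of −0.071. Slip1 had the lowest of these, −0.22, with −0.065 at the BEAF RNAi promoter and 0.032 in the Pbro RNAi gene body. CG33978 had the lowest unchanged gene body value after Pbro RNAi, −0.24, and stood at −0.0026 after BEAF RNAi. In BEAF RNAi gene bodies the median was below 0 in 7 of the 8 lists, the exception being the TGF-beta ligands with myo alone. The list of kinases and metabolism also had 1 gene there. The lists divide genes already counted above, so they add no separate result.

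In gene bodies after BEAF RNAi 7 genes lay above 0. They were lgs at 0.050, Taf3 at 0.033, CG31998 at 0.029, Hcf at 0.021, PlexB at 0.015, Gyf at 0.0026 and myo at 0.0022. All but myo were longer than 6446 bases, and all but Hcf lay on the minus strand.

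Strand and position were compared in the same way. Of the 43 genes 16 lay on the plus strand and 27 on the minus strand. In BEAF RNAi gene bodies 15 of 16 listed plus-strand genes were below 0, with a median of −0.12, and 18 of 24 minus-strand genes, with a median of −0.052. The plus-strand genes were also shorter, with a median length of 5315 bases against 8061 bases. On the other chromosomes the medians of both strands were 0.0074. In chromosome order, the first 22 genes had 16 of 21 listed values below 0 and a median of −0.058, and the remaining 21 had 17 of 19 and a median of −0.070, so values below 0 ran along the whole chromosome.

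Many of these genes lie head to head, with neighbouring starts pointing away from each other. In 8 such pairs of listed genes the starts were less than 2500 bases apart, from 752 to 2447. These pairs were picked by position after the values had been seen. In BEAF RNAi gene bodies the plus-strand gene of the pair was the lower of both in 6 of 8, and in 3 of the 5 pairs with starts less than 1500 bases apart. These genes also enter the comparison of strands above. Mitf had −0.23 beside PIP4K, a lipid kinase gene, at −0.055. Cadps had −0.23 beside the kinase gene Dyrk3 at −0.013. The short gene CG33941 (pncr013:4 in the sheets) had −0.17 beside Taf3 at 0.033, the closest pair. The pairs PMCA and Hcf, and ND-49 and Ephrin, ran the other way.

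Last, the genes known to regulate chromosome 4 or heterochromatin, which lie on other chromosomes, were read. Pof was not listed, nor were Su(var)3-9, G9a, HP1b, HP1c, HP4 and Hmt4-20. The other 11 of the 18 were listed, and 0 were called in any comparison. Over all listed transcripts the share called ran from 0.416% to 13.2% by comparison and direction. With 4 to 10 regulators listed in a comparison, nothing is read from this count. The gene of HP1a had 0.18 in the gene body after BEAF RNAi, the highest of the 10 listed there, and −0.076 at the promoter. The gene egg, which encodes the histone methyltransferase SETDB1 that acts on chromosome 4, had 0.12 in the BEAF RNAi gene body, and its partner wde had 0.032. In the same comparison Su(var)3-7 had 0.14, HP5 had 0.10, XNP had 0.056, JIL-1 had 0.018 and Su(var)3-3 had 0.0090. The values below 0 there were those of Su(var)2-HP2 (−0.0088) and HDAC1 (−0.052). After Pbro RNAi the HP1a gene had −0.14 at the promoter, the lowest of 7 listed there, and wde had −0.11 in the gene body. ADD1 was listed after Pbro RNAi alone, at −0.047 at the promoter and −0.041 in the gene body. In BEAF RNAi gene bodies 8 of the 10 regulators lay above 0, with a median of 0.044, where 2513 of all 4810 transcripts did. At the BEAF RNAi promoter 4 of 4 listed regulators lay below 0, with a median of −0.066.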

How the data were processed

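PRO-seq libraries of S2 cells after BEAF, Pbro or LacZ RNAi (2 each) were processed by the authors. Per the submitters' processing notes and the study's methods, reads were aligned to dm3 with Bowtie, nonoverlapping genes were counted, and knockdown was compared with LacZ RNAi in DESeq2. Versions are not given in the sources used here. The deposited values are the authors' log2 fold changes. The deposited adjusted p-values are also the authors', from DESeq2. They fill 12 sheets: a down, an up and an unchanged sheet for each knockdown and region. Reads per library, depth and standard errors were not used, so depth cannot be set beside a value. The promoter window was chosen by its reads, so a moved pause site can count as a change in level. How the regions were scaled is not given in the sources used here.

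The sheets were joined by transcript, and those on chromosome 4 were kept. Counts, medians and quartiles were computed in Python 3.11.15 with numpy 2.4.6, checked on simulated sheets, and set beside the other chromosomes. Coordinates are dm3, as the sheets give them. The RefSeq table is of another assembly and gave names only. No sequence is shown and promoter motifs were not analysed here, as no genome of that build was used.

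Named genes were all called members, the extremes of each comparison, members listed in all 4 comparisons with the largest values, up to 4 of each list, neighbours of called members and listed regulators. Others were named for their position or after their values were seen. The members and lists were chosen with earlier results of these data known. Alternatives were an adjusted p under 0.01, at least 2-fold, 1 entry per gene, genes over 2000 bases, unchanged members, members listed 4 times, and the mean.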

Additional observations from a re-analysis of the deposited data

How the results depend on the processing

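The counts of called genes were the same under an adjusted p of 0.01 and for the genes over 2000 bases. Taking 1 entry per gene could not change them, since the 43 transcripts are of 43 genes. Requiring at least 2-fold left 0 genes in each of the 3 comparisons with 1 call. The medians moved by less than 0.05 for unchanged members, for genes over 2000 bases and with the mean. Among the 10 genes listed in all 4 comparisons, a smaller set without myo, the Pbro RNAi promoter median was 0.023, against −0.068 over all listed genes. The BEAF RNAi gene body median lay between −0.089 and −0.061 under the 4 alternatives. Of these, the unchanged members are the same 40 genes and could not move it.

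No paired analysis was possible because the values used are fold changes over both replicates, and for the same reason leaving out a replicate was not run. With 2 libraries a group and no values per library used here, shifts of the size seen in BEAF RNAi gene bodies have no error of their own, and the share of all genes lying between the adjusted p limits is unknown.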
